A study of Mus musculus with 24 samples.

Results

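The genes described here are 10 transcripts that rise when the RAS-ERK cascade is active and that, for the most part, turn it down again: the phosphatases Dusp4, Dusp5 and Dusp6, the Sprouty genes Spry1, Spry2 and Spry4, the Sprouty-related genes Spred1 and Spred2, and the ETS factors Etv4 and Etv5. They were taken from the table of read counts by an exact match of the symbol, with no use of their values, and all 10 were found among its 24091 genes. All 10 also passed the filter on low counts that left 13520 genes to test, Etv4 mainly through the CP CML libraries, where it was highest. The libraries were bulk RNA-seq of LSKs, the Lin-Sca-1+c-Kit+ bone marrow cells that hold the stem and multipotent progenitor cells, sorted from 24 mice on the B6 background, in 4 groups that each held 3 females and 3 males. WT mice carried both copies of miR-142 and no transgene, and miR-142 KO mice were miR-142-/- in every cell. CP CML mice carried the SCLtTA/BCR-ABL transgenes with miR-142 intact, and BC CML mice carried the same transgenes on miR-142-/-; the labels call these groups CML and miR-142 KO CML. BCR-ABL was driven from the SCL promoter, which is active in stem and progenitor cells, and was switched on by taking tetracycline away 2 weeks before the cells were collected. The methods of the study state a smaller number of mice per group than the labels list, ages are not given in the sources used here, and each library came from a separate mouse.

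BCR-ABL is a tyrosine kinase that recruits adaptors and exchange factors to load RAS with GTP, after which RAF, MEK and ERK are phosphorylated in turn. ERK then raises the transcription of its own brakes: DUSP6 removes phosphates from ERK in the cytoplasm, DUSP4 and DUSP5 do so in the nucleus, and Sprouty and SPRED proteins act further up, at adaptors, RAS and RAF. Many of these genes are held down by the repressor Capicua, which active ERK takes off the DNA, and others are reached through SRF and its partners at CArG boxes, so the mRNA of such genes is widely used as a readout of the pathway. In blood stem and progenitor cells the same cascade lies downstream of KIT, FLT3 and cytokine receptors.

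Total counts per library ran from 16267965 to 24687077 over the 24 mice, and no pair of libraries held identical counts. Mir142 itself, the targeted gene, had 94 to 127 counts in WT and 68 to 153 in CP CML LSKs while all 12 libraries without miR-142 had 0, which allows up to 3 counts. Ly6a (Sca-1) and Kit, the markers of the sort, together with the progenitor marker Cd34 summed to 1869 to 2496 CPM (counts scaled to library size) in every library, a sum within which single genes differed. Ly6a ran from 30.74 to 49.48 CPM in WT, from 51.49 to 155.3 in miR-142 KO, from 36.61 to 69.91 in CP CML and from 94.29 to 134.8 in BC CML LSKs, and Kit from 783.2 to 1219, from 661.7 to 971.3, from 973.6 to 1239 and from 745.3 to 883.2 CPM in that order. Marker lists of progenitor and other blood cells moved with the groups. The 7 long-term stem cell markers summed to 785.9 to 1442 CPM in WT LSKs. Their range was 496 to 681.1 in miR-142 KO, then 583.4 to 795.8 in CP CML and last 371.7 to 536.6 in BC CML LSKs. The 5 neutrophil-primed markers ran from 1247 to 4842, from 2762 to 7531, from 4482 to 7642 and from 5830 to 8560 CPM in the same order, the 5 lymphoid-primed markers from 2083 to 3215, from 572.9 to 1206, from 1076 to 1656 and from 646.1 to 993.1, and the 6 mast cell or basophil markers from 79.56 to 570.8, from 224.8 to 2621, from 1184 to 2249 and from 3401 to 7316. B and plasma cell markers summed to 71.6 to 980.7 CPM in WT and 173.7 to 792.9 in CP CML LSKs and to at most 47.73 CPM in both groups without miR-142. In the order used for Ly6a, the 7 erythroid markers summed to 62.21 to 133.3, 19.28 to 161.3, 22.07 to 52.95 and 16.54 to 25.61 CPM, and the 6 megakaryocyte markers to 144.6 to 237, 198.4 to 582.6, 223.9 to 316.9 and 232.2 to 324. The sums of the T or NK cell markers were 48.94 to 87.09, 112.5 to 137, 61.29 to 82.16 and 75.53 to 120.7 CPM, so that WT and miR-142 KO LSKs did not overlap. Most of that sum was Nkg7, with 1144 to 1906 counts in WT and 2114 to 2783 in miR-142 KO LSKs. Cd3e, Cd3d, Cd3g, Cd8a, Klrb1c and Ncr1 had at most 450 counts in these groups and overlapped in counts between them. Macrophage markers gave 45.08 to 970.4, 10.7 to 88.89, 64.58 to 459.6 and 48.22 to 202.6, monocyte or dendritic cell markers 162.5 to 814.2, 188.8 to 717.9, 550.5 to 706.5 and 601.5 to 786.2, and mature neutrophil markers 7.52 to 61.73, 18.57 to 184, 17.62 to 43.94 and 11.4 to 48.26 CPM. WT mouse 3 alone set several of the WT maxima. Its macrophage sum was 970.4 CPM against 45.08 to 170.8 in the other WT mice. For monocyte or dendritic cell markers it had 814.2 against 162.5 to 424.6, and for neutrophil-primed markers 4842 against 1247 to 2595. No marker of these lists was at 0 in all libraries of a group. In bulk RNA, fewer cells that express a gene and less of its RNA per cell cannot be told apart, and the part of these shifts in the results below was not tested.

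Promoters were searched for the sites through which ERK is known to reach such genes. RefSeq windows of 300 bases on GRCm38.p6, 250 before the start of transcription and 50 from it on, were at hand for 7 members. The letters searched, on both strands, were the Capicua octamers TGAATGAA, TGAATGGA, TCAATGAA and TCAATGGA, a looser set that ends in G (TGAATGAG, TGAATGGG, TCAATGAG and TCAATGGG), the ETS core CCGGAA, the AP-1 heptamer TGACTCA, the CRE octamer TGACGTCA, the EGR1 nonamer GCGGGGGCG and the CArG box. The looser set was added after the first search. The AP-1, CRE and EGR1 motifs were in 5.20%, 1.79% and 2.91% of all windows and in no window of a member. Dusp6 held 2 Capicua octamers, the first base of one 24 bases before the start site and of the other 1 base after it, and Spry2 held 1 octamer 54 bases before. A Capicua octamer was present in 3.84% of all 32851 windows and in the window of 2.85% of the tested genes that had one. Dusp5 held 2 adjoining CArG boxes, a motif found in 1.63% of all windows, together with 1 octamer of the looser set. Dusp5 and Spry1 passed in no comparison of groups, and the window of Spry1 had no match and is not shown. The windows of Dusp6, Spry2 and Dusp5 are shown, the first 2 because these genes had the most alike levels of all members over the 24 mice. Whether a motif goes with the levels of a gene was not tested. The first 280 bases of each are printed 5′ to 3′ on the strand of the gene, with the matches in capitals, from chr10:99262981-99263260 (+) for Dusp6, chr14:105896790-105897069 (-) for Spry2 and chr19:53528895-53529174 (+) for Dusp5, whose start site in RefSeq lies upstream of the gene start in the deposited table.
Dusp6: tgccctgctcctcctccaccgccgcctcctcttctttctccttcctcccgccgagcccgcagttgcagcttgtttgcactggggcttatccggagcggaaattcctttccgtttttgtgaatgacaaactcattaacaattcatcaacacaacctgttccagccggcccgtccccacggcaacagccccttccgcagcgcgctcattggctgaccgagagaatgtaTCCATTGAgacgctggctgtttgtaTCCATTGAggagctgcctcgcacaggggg
Spry2: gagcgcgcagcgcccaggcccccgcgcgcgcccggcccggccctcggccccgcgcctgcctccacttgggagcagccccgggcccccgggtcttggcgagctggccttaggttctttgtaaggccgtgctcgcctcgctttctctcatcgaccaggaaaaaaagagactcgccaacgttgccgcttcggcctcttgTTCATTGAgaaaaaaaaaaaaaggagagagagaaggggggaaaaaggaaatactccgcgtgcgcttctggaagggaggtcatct
Dusp5: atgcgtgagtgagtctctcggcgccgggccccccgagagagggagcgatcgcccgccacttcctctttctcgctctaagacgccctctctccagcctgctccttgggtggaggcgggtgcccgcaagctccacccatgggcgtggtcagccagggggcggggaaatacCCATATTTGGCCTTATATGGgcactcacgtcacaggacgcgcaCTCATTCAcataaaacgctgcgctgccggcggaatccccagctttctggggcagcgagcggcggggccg
An ETS core, which 14.9% of all windows held, lay 33 bases after the start site of Spry2. Of the 2 windows of Etv5, the one at the inner start site held 3 octamers of the looser set, present in 3.44% of all windows, and the outer held none of the motifs. The windows of Spry1, Spred1 and Spred2 had no match. A match is a run of letters and does not show that a factor binds there.

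The microRNA that was deleted could also pair with a member directly, so the 3′ UTRs were searched for its seed sites. Both arms are given with their seeds, bases 2 to 8, in capitals, and they lie on the plus strand of GRCm38 at chr11:87756903-87756925 (3p) and chr11:87756867-87756887 (5p).
miR-142a-3p: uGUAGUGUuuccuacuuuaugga
miR-142a-5p: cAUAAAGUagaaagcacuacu
Among the members searched, 1 site of 7 bases was found, for the 3p arm in the 3′ UTR of Spred1 at chr2:117179409-117179415 (+) of GRCm38. It is shown in capitals within its neighbouring bases, since it was the only one.
Spred1: aatgaaaatcACACTACcatttgaa
Of 12609 tested genes with a 3′ UTR, 6.92% held a 3p site and 15.8% a 5p site. Spry4 was not searched.

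Compared per length, the members covered a wide range of levels in WT LSKs. The highest was Dusp6 with 33.7 ± 5.5 RPKM (reads scaled to library size and gene length, mean ± SD, n = 6 mice), followed by Dusp5 with 19.5 ± 8.14, Spry2 with 16.6 ± 2.67 and Spred1 with 16.1 ± 1.94. Spred2 stood at 10.4 ± 1.61, Spry1 at 6.28 ± 1.60, Etv5 at 4.15 ± 0.673 and Dusp4 at 2.62 ± 0.716. Spry4 and Etv4 were scarce, at 0.319 ± 0.0742 and 0.0450 ± 0.0267 RPKM, so that 22 to 43 and 2 to 8 reads per library stood behind them. In BC CML LSKs Dusp6 had 17.7 ± 2.58 RPKM and Spred1 16.7 ± 2.52. All further levels are CPM and compare 1 gene across groups.

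**Figure D1:**
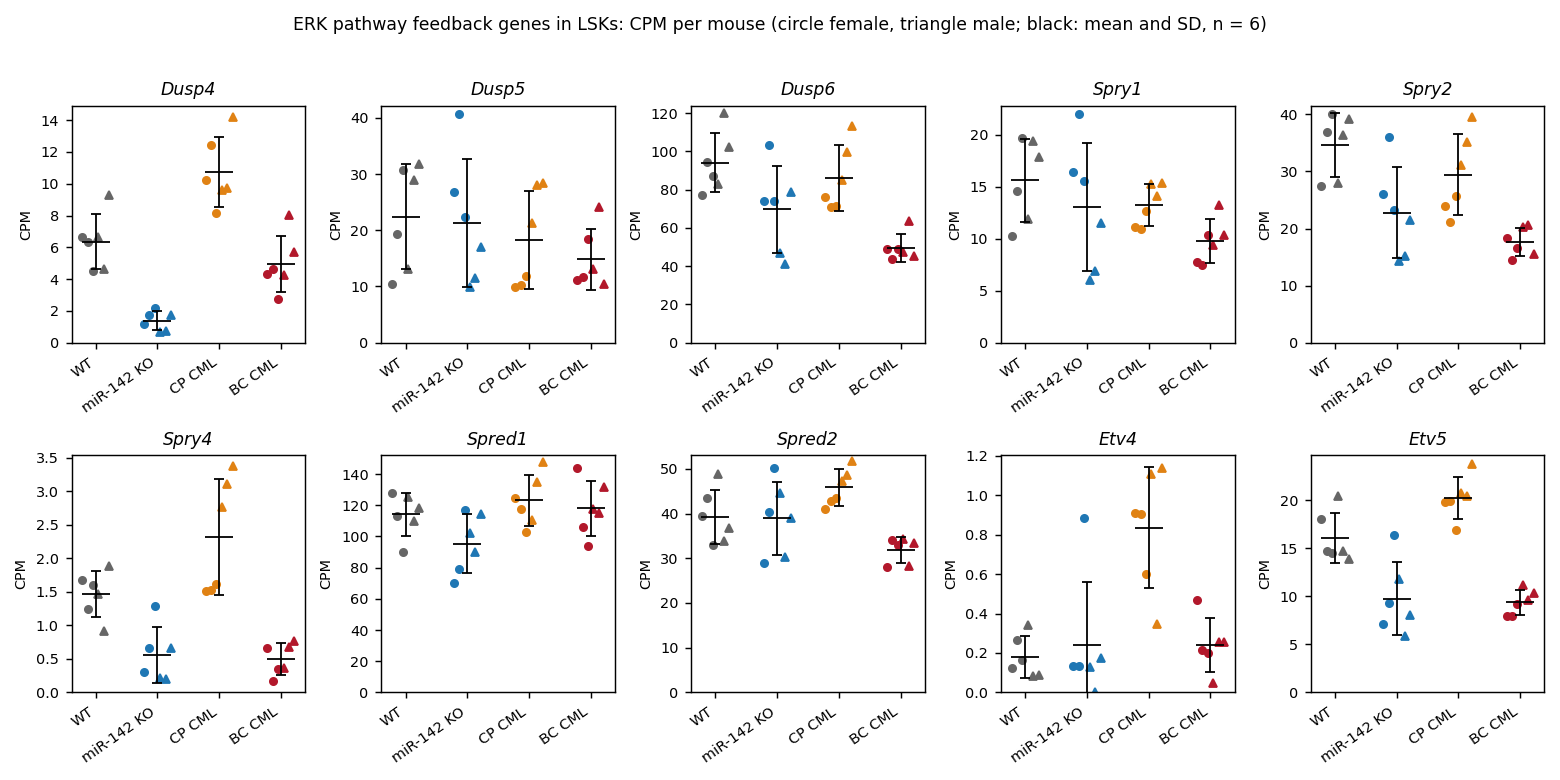
CPM of each of the 10 genes (vertical axes, from 0) in each mouse of the 4 groups, with circles for females, triangles for males and the mean and SD of 6 mice in black. All 6 BC CML mice lay below all 6 CP CML mice for Dusp4, Dusp6, Spry2, Spry4, Spred2 and Etv5, and all 6 miR-142 KO mice lay below all WT mice for Dusp4.

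Among the phosphatases, Dusp4 (chr8:34807610-34819894 of mm10, plus strand) followed both genotypes. The lowest, median and highest mouse had 4.50, 6.49 and 9.27 CPM in WT and 0.680, 1.46 and 2.17 CPM in miR-142 KO LSKs. The same values were 8.17, 9.99 and 14.2 CPM in CP CML and 2.72, 4.48 and 8.04 CPM in BC CML LSKs. Thus every miR-142 KO mouse lay below every mouse of the other groups, every BC CML mouse lay below every CP CML mouse, and BC CML overlapped WT. Dusp6 (chr10:99263231-99267489, plus strand), the cytoplasmic ERK phosphatase, had 77.4, 90.9 and 119.9 CPM in WT, 40.9, 74.0 and 103.5 in miR-142 KO, 70.7, 80.7 and 113.4 in CP CML and 43.5, 48.1 and 63.6 in BC CML LSKs. By median the order was WT, CP CML, miR-142 KO and BC CML. Neighbours in that order overlapped, while BC CML lay below all of CP CML and WT. Dusp5 (chr19:53529318-53541322, plus strand) had 10.5, 24.2 and 31.9 CPM in WT, 9.90, 19.7 and 40.6 in miR-142 KO, 9.88, 16.5 and 28.4 in CP CML and 10.4, 12.4 and 24.2 in BC CML LSKs. All 4 groups of Dusp5 overlapped, and its SD was 36.5% to 53.3% of the mean within each.

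The Sprouty genes encode membrane-bound inhibitors that act on adaptors and RAF. Spry2 (chr14:105891947-105896819, minus strand) had 27.4, 36.6 and 40.1 CPM in WT, 14.4, 22.4 and 36.0 in miR-142 KO, 21.1, 28.5 and 39.5 in CP CML and 14.6, 17.4 and 20.6 in BC CML LSKs. The highest BC CML mouse lay just below the lowest CP CML mouse, while miR-142 KO overlapped all other groups. Spry4 had 0.921, 1.53 and 1.88 CPM in WT, 0.205, 0.486 and 1.28 in miR-142 KO, 1.52, 2.19 and 3.37 in CP CML and 0.173, 0.511 and 0.763 in BC CML LSKs. In reads these were 22 to 43, 5 to 29, 25 to 77 and 4 to 18 per library, and BC CML lay below all of WT and CP CML. Spry1 (chr3:37639947-37644599, plus strand) had 10.3, 16.3 and 19.7 CPM in WT, 5.99, 13.5 and 22 in miR-142 KO, 10.98, 13.4 and 15.3 in CP CML and 7.47, 9.88 and 13.2 in BC CML LSKs, and all groups overlapped.

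The SPRED proteins bring neurofibromin to the membrane, where it switches RAS off. Spred1 (chr2:117121071-117182277, plus strand) had 89.9, 115.9 and 128.1 CPM in WT, 69.9, 96.1 and 117.0 in miR-142 KO, 102.7, 121.3 and 148.1 in CP CML and 94.1, 116.4 and 143.8 in BC CML LSKs, with overlap throughout. Spred2 (chr11:19924442-20022597, plus strand) had 33.1, 38.1 and 48.9 CPM in WT, 29.0, 39.7 and 50.2 in miR-142 KO, 41.0, 45.4 and 51.8 in CP CML and 28.1, 33.2 and 34.2 in BC CML LSKs. BC CML mice held the smallest range and lay below all CP CML mice. The ETS factors Etv4 and Etv5 are products of ERK signalling rather than brakes on it. Etv5 (chr16:22381313-22439570, minus strand) had 13.9, 14.7 and 20.4 CPM in WT, 5.87, 8.68 and 16.4 in miR-142 KO, 16.9, 20.1 and 23.7 in CP CML and 7.90, 9.40 and 11.2 in BC CML LSKs. All BC CML mice lay below all WT and CP CML mice, and miR-142 KO and BC CML overlapped. Etv4 (chr11:101769748-101785310, minus strand) had 2 to 8 reads per library in WT LSKs, 0 to 20 with miR-142 lost, 8 to 26 with BCR-ABL and 1 to 10 with both, which is 0.0837, 0.143 and 0.344 CPM, 0, 0.133 and 0.885 CPM, 0.350, 0.909 and 1.14 CPM and 0.0453, 0.235 and 0.471 CPM.

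BC CML was compared with CP CML LSKs to ask how LSKs with BCR-ABL differ when miR-142 is absent, as it was before BCR-ABL was switched on. Of the 10 genes, 7 were lower in BC CML and 0 were higher with the threshold on adjusted p at 0.05 (edgeR's quasi-likelihood test, Benjamini-Hochberg over the 13520 genes), where 17.6% of all genes were lower and 20.4% higher. For 6 genes every BC CML mouse lay below every CP CML mouse, which held for 9.28% of all genes in that direction. The median log2 fold change was -0.77 over the members and 0.014 over all genes tested, and all 10 values were below 0. In the same comparison 6 of 7 long-term stem cell markers and 3 of 5 lymphoid-primed markers were lower, and 3 of 5 neutrophil-primed and 4 of 6 mast cell or basophil markers were higher. Another of the lymphoid-primed markers was higher, Il7r having 13.3 to 27.19 CPM in CP CML LSKs against 29.23 to 49.1 in BC CML. Also lower were 3 of 8 mature neutrophil, 4 of 9 B and plasma cell, 2 of 7 erythroid and 2 of 6 monocyte or dendritic cell markers. The receptors named above differed too, with Flt3 at 573.9 to 812.1 CPM in CP CML LSKs against 224.7 to 380.1 in BC CML, without overlap, and Kit as given above. The part of these shifts in the fall of the members was not tested.

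Spry4 fell furthest in this comparison, to 21.7% of its CP CML level (log2 fold change -2.20 ± 0.38, SE, adjusted p = 9.01e-05). Etv5 fell to 46.2% (-1.11 ± 0.18, adjusted p = 2.95e-05) and Dusp4 also to 46.2% (-1.11 ± 0.25, adjusted p = 0.00125). The cytoplasmic phosphatase Dusp6 was at 57.5% (-0.80 ± 0.17, adjusted p = 0.000904) and Spry2 at 59.8% (-0.74 ± 0.19, adjusted p = 0.00302). Spred2 fell least among those called, to 69.4% (-0.53 ± 0.12, adjusted p = 0.000946). Etv4 was at 29.2% with few reads and with overlap of the groups (-1.78 ± 0.53, adjusted p = 0.0107). It passed the filter on low counts mainly through the CP CML libraries, so its being tested was not independent of this difference. The remaining genes did not pass: Spry1 at -0.44 ± 0.24 (adjusted p = 0.158), Dusp5 at -0.31 ± 0.36 (adjusted p = 0.525) and Spred1 at -0.06 ± 0.12 (adjusted p = 0.723). With only the libraries compared in the fit, Spry1 passed as well (adjusted p = 0.0167). The same 7 genes passed in each of 24 fits that left out 1 mouse. Fits without a WT or miR-142 KO mouse bear on this comparison only through the shared spread, scaling and filter.

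**Figure D2:**
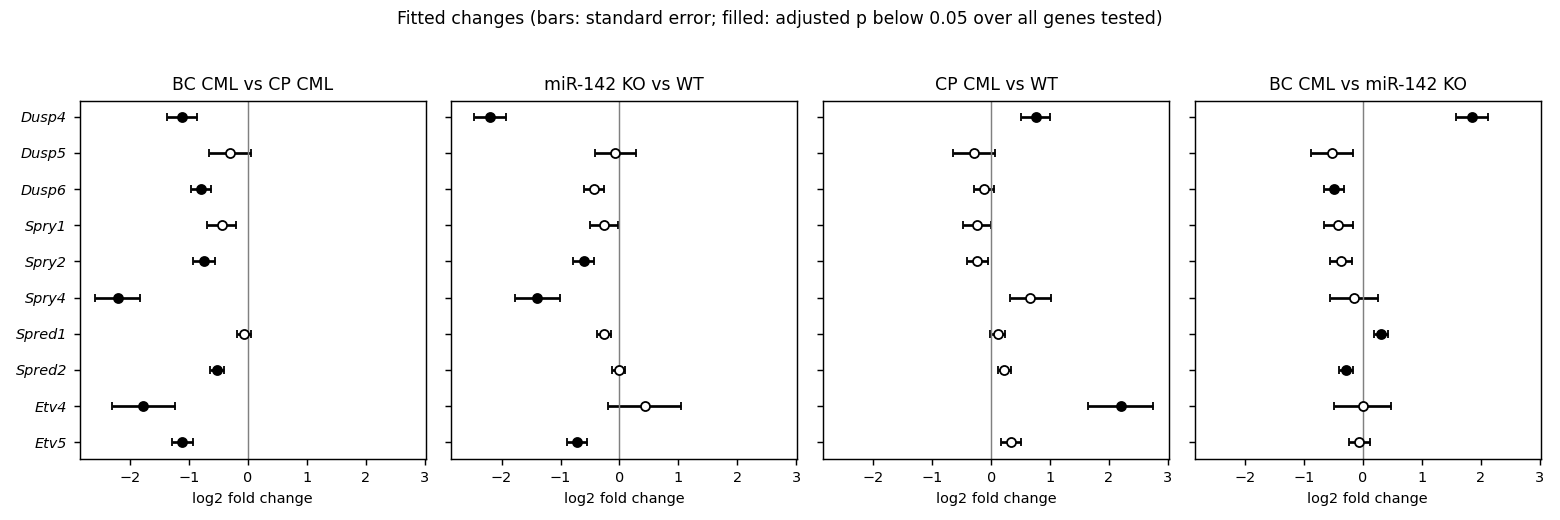
Fitted log2 fold change of each gene (horizontal axis) in the 4 comparisons, with its standard error; filled points passed the threshold of 0.05 on adjusted p. In BC CML against CP CML LSKs 7 points are filled, all to the left of 0, and in miR-142 KO against WT LSKs 4.

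In LSKs without BCR-ABL, loss of miR-142 lowered 4 of the 10 genes and raised 0, beside 16.4% of all genes lower and 19.9% higher. Dusp4 fell to 21.7% of its WT level (log2 fold change -2.20 ± 0.27, SE, edgeR adjusted p = 1.35e-06), and it was the only member without overlap of the groups, which held for 6.14% of all genes in that direction. Spry4 was at 38.0% (-1.40 ± 0.38, adjusted p = 0.00591), Etv5 at 60.7% (-0.72 ± 0.17, adjusted p = 0.00239) and Spry2 at 65.6% (-0.61 ± 0.18, adjusted p = 0.0120). Dusp6 came close, at 74.1% (-0.43 ± 0.17, adjusted p = 0.0517), and passed in the likelihood ratio test of edgeR (0.0387), in DESeq2 (0.0309) and with upper quartile scaling (0.0299). Spred1 was at -0.26 ± 0.12 (adjusted p = 0.100), Spry1 at -0.26 ± 0.24 (0.413), Dusp5 at -0.07 ± 0.35 (0.893) and Spred2 at -0.01 ± 0.11 (0.941). Etv4 was at 0.42 ± 0.62 (adjusted p = 0.621), and 20 of its reads came from 1 miR-142 KO mouse, mouse 3, without which the value was -0.62. That mouse also had the highest Dusp4, Spry4, Spred1, Spred2 and Etv5 of its group. Its marker sums stood apart as well, with neutrophil-primed markers at 2762 CPM against 6175 to 7531 in the other miR-142 KO mice, lymphoid-primed markers at 572.9 against 972.1 to 1206, erythroid markers at 19.28 against 54.87 to 161.3 and macrophage markers at 10.7 against 53.96 to 88.89. The median was -0.35 over the members and 0.0054 over all genes. Long-term stem cell markers (6 of 7) and lymphoid-primed markers (4 of 5) were lower in the same comparison, and all 5 neutrophil-primed and 5 of 6 mast cell or basophil markers were higher. So were 5 of 6 megakaryocyte, 4 of 8 mature neutrophil and 3 of 4 T or NK cell markers, while 5 of 7 macrophage and 3 of 9 B and plasma cell markers were lower. Flt3 ran from 758 to 1029 CPM in WT and from 213.7 to 414.7 CPM in miR-142 KO LSKs.

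Whether the effect of miR-142 loss differed with BCR-ABL was tested as an interaction. No member passed (edgeR's quasi-likelihood test; DESeq2 called 2), while 1.91% of all genes passed upward and 2.08% downward. At an unadjusted p below 0.05 there were 3: Dusp4, with a difference of 1.09 ± 0.37 (effect with BCR-ABL minus effect without, SE, adjusted p = 0.0933), Spred2 (-0.51 ± 0.16, adjusted p = 0.0752) and Etv4 (-2.20 ± 0.82, adjusted p = 0.131). DESeq2 called Dusp4 (adjusted p = 0.0455) and Spred2 (0.0328). For the other members the differences were between -0.81 ± 0.54 (Spry4) and 0.20 ± 0.17 (Spred1), so a larger fall of Spry4, Dusp6 or Etv5 in the leukemic cells was not shown.

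In cells with miR-142, 2 of the 10 genes were higher in CP CML than WT LSKs and 0 were lower. The number higher is close to the share of all genes, of which 22.5% were higher and 22.9% lower. Etv4 rose 4.60-fold (log2 fold change 2.20 ± 0.55, SE, edgeR adjusted p = 0.00247), from at most 8 reads per WT library to at least 8 per CP CML library. In CPM its groups did not overlap, as for 11.9% of all genes upward. It passed the filter on low counts mainly through the CP CML libraries, so its being tested was not independent of this difference. Dusp4 rose 1.69-fold (0.76 ± 0.25, adjusted p = 0.0159) with overlap. Spry4 was at 0.66 ± 0.35 (adjusted p = 0.122), Etv5 at 0.34 ± 0.17 (0.114) and Spred2 at 0.22 ± 0.11 (0.113). Dusp6 was at -0.13 ± 0.17 (adjusted p = 0.568), Spry1 at -0.24 ± 0.24 (0.436), Spry2 at -0.23 ± 0.18 (0.309), Dusp5 at -0.29 ± 0.35 (0.519) and Spred1 at 0.11 ± 0.12 (0.482). With only the libraries compared in the fit, Spry4 (adjusted p = 0.0430) and Etv5 (0.0182) passed too, and Dusp4 passed as before, while Etv4 was not tested because of its low counts. In this comparison all 7 long-term stem cell markers, 6 of 7 erythroid and 3 of 5 lymphoid-primed markers were lower. All 5 neutrophil-primed, 4 of 6 mast cell or basophil and 3 of 6 monocyte or dendritic cell markers were higher, and 1 of the latter was lower.

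In cells without miR-142, 2 members were higher with BCR-ABL and 2 lower. These numbers are close to the shares of all genes, 20.3% higher and 19.3% lower. Dusp4 rose 3.60-fold (log2 fold change 1.85 ± 0.27, SE, edgeR adjusted p = 2.49e-05) without overlap, which held for 6.08% of all genes upward. Dusp6 fell to 71.1% (-0.49 ± 0.17, adjusted p = 0.0277). Spred1 was higher, at 0.31 ± 0.12 (adjusted p = 0.0482), and Spred2 lower, at -0.29 ± 0.12 (adjusted p = 0.0494), and these near-threshold calls were lost when no filter on low counts was used (0.0607 and 0.0533). When each mouse was left out in turn, Spred1 passed in 6 and Spred2 in 15 of 24 fits, and Dusp6 in 22, not passing without miR-142 KO mouse 2 (adjusted p = 0.0938) or BC CML mouse 2 (0.0551). With only the libraries compared in the fit, Dusp6 (adjusted p = 0.0563), Spred1 (0.0917) and Spred2 (0.0758) did not pass, which left Dusp4. Etv5 (-0.06 ± 0.18, adjusted p = 0.811), Spry4 (-0.14 ± 0.41, 0.805) and Etv4 (0.00050 ± 0.49) did not pass, nor did Spry2 (-0.37 ± 0.19, 0.121), Spry1 (-0.42 ± 0.24, 0.177) and Dusp5 (-0.53 ± 0.36, 0.246). Markers moved here too. Lower were 5 of 7 long-term stem cell, 7 of 8 mature neutrophil, 5 of 7 erythroid, 5 of 6 megakaryocyte and 3 of 4 T or NK cell markers, and higher were 4 of 6 mast cell or basophil, 3 of 5 neutrophil-primed and 2 of 7 macrophage markers and the remaining mature neutrophil marker, whose part in these member values was not tested. The groups WT and CP CML, and miR-142 KO and BC CML, serve in more than 1 of these comparisons.

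**Figure D3:**
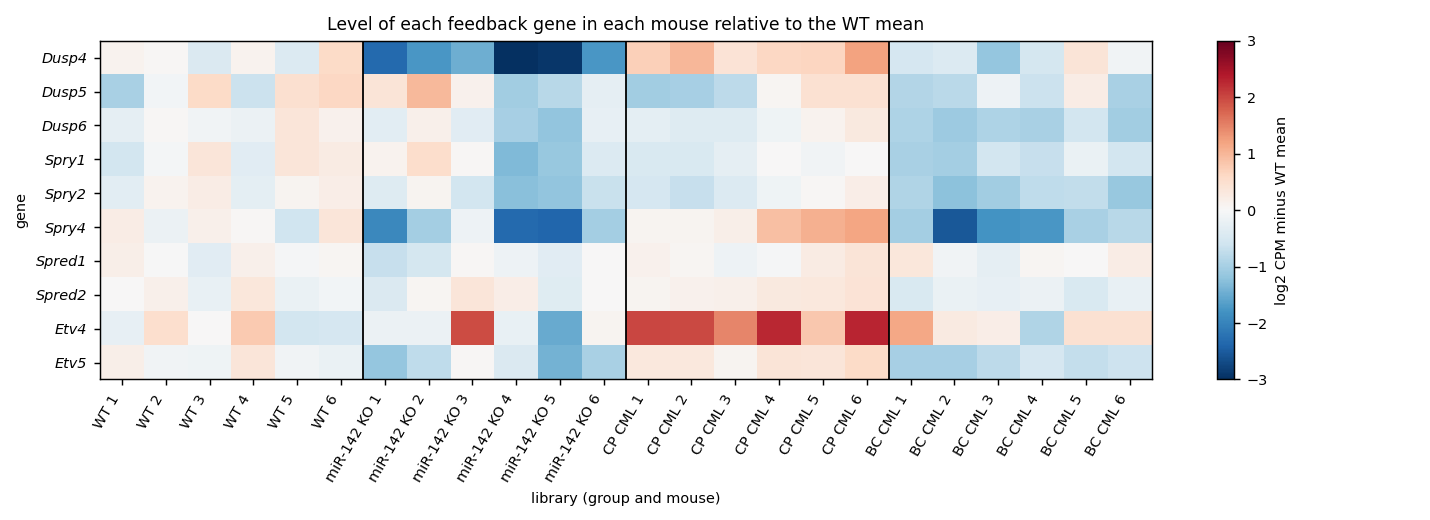
Log2 CPM (prior count 2) of each gene, in rows, in each mouse, in columns, minus the WT mean; blue is lower and red higher, and the colour scale ends at -3 and 3. The BC CML columns are blue for most genes, Dusp4 is bluest in miR-142 KO mice 4 and 5, Spry4 in BC CML mouse 2, and Etv4 is red in CP CML mice and in miR-142 KO mouse 3.

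Likeness of pattern was taken as the root mean square difference of log2 CPM, each gene centred on its mean over the 24 libraries. Of all genes tested, the one most like Dusp6 was Spry2 and the one most like Spry2 was Dusp6, at a difference of 0.162, against an SD of 0.473 and 0.496 for each gene alone. Il18rap (0.177) and Rps13 (0.231) followed for Dusp6, the latter a ribosomal protein gene of a kind with near-identical copies in the genome and so uncertain, and Taf7 (0.205) and Spry1 (0.254) for Spry2. The other members called in a comparison of groups had no member among their 3 nearest genes. For Etv5 these were Lrrc66 (0.277), Spag1 (0.285) and Marcksl1 (0.288), for Spry4 Gem (0.540), Plch1 (0.598) and St14 (0.616), and for Dusp4 Robo1 (0.591), Rnase4 (0.607) and Gpr55 (0.609). For Etv4 they were Scn11a (0.542), Arfgef3 (0.615) and Synpo (0.682). Spred1 (Polr3g, Kpna3 and Taf1d, 0.146 to 0.150) and Spred2 (BC048403, Nt5dc1 and Usp6nl, 0.146 to 0.163) had the lowest SD of the members in this rule, 0.259 and 0.273.

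Immediate early genes, which respond to ERK and to the handling of cells within minutes, set the mice of a group apart in a way that some members shared. Fos, Fosb, Egr1, Jun, Junb and Ier2, a list written after these values were seen, summed to 1216 to 5849 CPM in WT LSKs. The sums ran from 1332 to 8579 in miR-142 KO mice, from 4413 to 8932 in CP CML mice and from 3058 to 5761 in BC CML mice. WT mice 1 and 4 (1216 and 1713 CPM) had the lowest Dusp5, Dusp6, Spry1 and Spry2 of their group, for Dusp6 77.4 and 83.0 CPM against 87.2 CPM in the next mouse. The same mice had the highest sums of long-term stem cell markers (1268 and 1442 CPM against 785.9 to 956.6 in the other WT mice), and the lowest of neutrophil-primed markers (1615 and 1247 against 1764 to 4842) and of mast cell or basophil markers (89.76 and 79.56 against 370.3 to 570.8). Among miR-142 KO mice, 4 and 5 (1332 and 1719 CPM) had the lowest of the same 4 genes, and mouse 2 (8579 CPM) the highest. BC CML mouse 5, with the highest sum of its group, had the highest Dusp4, Dusp5, Dusp6, Spry1 and Spry2 there. Etv5 and Spred1 did not go this way in WT mice, where mice 1 and 4 had the highest levels of both.

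**Figure D4:**
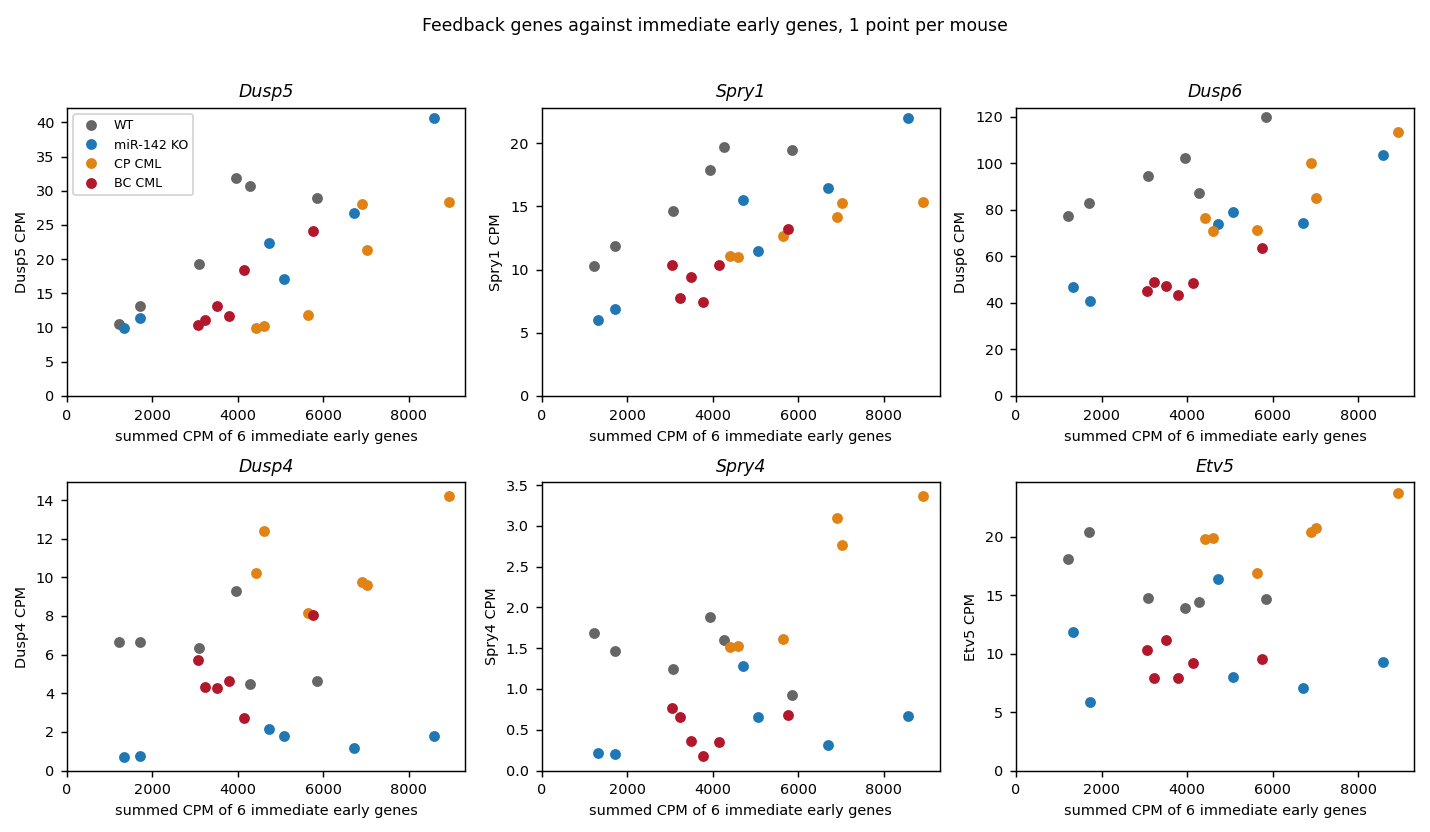
CPM of 6 of the genes (vertical axes) against the summed CPM of 6 immediate early genes (horizontal axes), 1 point per mouse and 1 colour per group. For Dusp5 and Spry1 the mice with the lowest sums in WT and miR-142 KO have the lowest values of their group and BC CML and CP CML mice overlap, whereas for Dusp6, Dusp4, Spry4 and Etv5 all BC CML mice lie below all CP CML mice.

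A fit with the mean log2 CPM of those 6 genes as a covariate was added after seeing the data. Of all 13520 genes it called 2357 lower and 2822 higher in BC CML against CP CML LSKs. In miR-142 KO against WT LSKs these numbers were 2294 and 2610, and in CP CML against WT LSKs 2482 and 2490. In BC CML against CP CML LSKs 7 members were again lower and 0 higher, with Dusp6 at -0.54 ± 0.10 (edgeR adjusted p = 0.000131), Spry2 at -0.45 ± 0.11 (0.00236), Spry4 at -1.96 ± 0.39 (0.000469) and Etv5 at -1.15 ± 0.19 (4.89e-05). In miR-142 KO against WT LSKs 7 were lower and 0 higher, since Dusp6 (-0.63 ± 0.09, adjusted p = 1.23e-05), Spry1 (-0.58 ± 0.10, 0.000127) and Dusp5 (-0.42 ± 0.17, 0.0499) passed too. In CP CML against WT LSKs Etv4 was still higher, Dusp4 no longer passed (0.188), and Dusp5 (-1.13 ± 0.19, 0.000123), Dusp6 (-0.54 ± 0.10, 0.000429), Spry1 (-0.82 ± 0.11, 1.51e-05) and Spry2 (-0.67 ± 0.12, 0.000207) were lower. The 6 genes respond to ERK themselves, and Junb was higher in CP CML than WT LSKs (1.04 ± 0.32, adjusted p = 0.0117) and Egr1 lower in BC CML than CP CML LSKs (-1.16 ± 0.39, adjusted p = 0.0226), so the covariate and the difference asked about cannot be told apart.

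For several members the CP CML males and females did not overlap. The share of all genes that did so was not counted. The labels number these males and females in separate runs, so sex and those runs cannot be told apart. All 3 CP CML males were above all 3 females for Dusp5 (21.3 to 28.4 against 9.88 to 11.8 CPM), Dusp6 (85.0 to 113.4 against 70.7 to 76.4), Spry1, Spry2, Spry4 (2.77 to 3.37 against 1.52 to 1.62), Spred2 and Etv5. Among miR-142 KO mice it was the other way for Dusp5 (9.90 to 17.1 in males against 22.4 to 40.6 CPM in females), Spry1 and Spry2. All BC CML males were above all BC CML females for Etv5 (9.57 to 11.2 against 7.90 to 9.23 CPM). Immediate early genes went with the sexes in CP CML mice, at 4413 to 5647 CPM in females and 6901 to 8932 CPM in males. Macrophage markers did so as well, summing to 64.58 to 91 CPM in CP CML females and 354.2 to 459.6 CPM in CP CML males. Among miR-142 KO mice immediate early genes were at 4722 to 8579 CPM in females and 1332 to 5074 CPM in males, with overlap. The part of either list in the differences between the sexes was not tested. In BC CML against CP CML LSKs, 6 of the 7 genes called had no overlap of the groups. Their log2 ratio of means was therefore bound to be below 0 in each sex. It was -1.98 in females and -2.36 in males for Spry4 and -0.63 and -0.93 for Dusp6. Etv4, called with overlap, was at -1.44 in females and -2.23 in males. For miR-142 KO against WT LSKs Dusp6 was at -0.04 in females and -0.87 in males. The sexes differed in sign there for Dusp5 (0.568 in females and -0.945 in males), Spry1 (0.276 and -1.016), Spred2 (0.043 and -0.07) and Etv4 (1.053 and -0.762). In BC CML against miR-142 KO LSKs Dusp6 was at -0.834 in females and -0.093 in males. Spry4 in CP CML against WT LSKs was at 0.042 in females and 1.116 in males. Differences between sexes were not tested, and sex as a covariate left the calls of each comparison as they were except for Spred2 in BC CML against miR-142 KO LSKs.

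The pathway around these genes was described with lists of other genes, 88 of which were tested. With BCR-ABL on, 17 were higher and 17 lower when miR-142 was lost, with a median log2 fold change of -0.05, and without BCR-ABL 23 were higher and 16 lower, with a median of 0.07. In CP CML against WT LSKs 22 were higher and 19 lower, and in BC CML against miR-142 KO LSKs 15 and 9. Over all lists there were thus calls in both directions in each of the 4 comparisons, as there were among all genes. Of all genes tested, 20.4% were higher and 17.6% lower in BC CML against CP CML LSKs, and 19.9% and 16.4% in miR-142 KO against WT. These shares were 22.5% and 22.9% in CP CML against WT LSKs, and 20.3% and 19.3% in BC CML against miR-142 KO LSKs. They also stand beside the counts of each list below.

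Upstream of RAS, among 16 adaptors and exchange factors, 6 were higher and 2 lower in BC CML against CP CML LSKs (median 0.08) and 9 higher and 2 lower in miR-142 KO against WT LSKs (median 0.19). Crk, an SH2 and SH3 adaptor that couples BCR-ABL to its effectors, had 105.6 to 129.3 CPM in CP CML LSKs against 207.2 to 246.2 in BC CML (0.89 ± 0.06, SE, edgeR adjusted p = 2.61e-10). It had 118.5 to 151.2 CPM in WT and 183.9 to 224.6 in miR-142 KO LSKs (0.54 ± 0.06, adjusted p = 7.55e-07), and the rise was larger with BCR-ABL (difference 0.36 ± 0.09, adjusted p = 0.0261). Rasgrp3, an exchange factor that loads RAS with GTP, fell without miR-142 on both backgrounds (-2.01 ± 0.23, adjusted p = 4.54e-07, and -1.90 ± 0.23, adjusted p = 8.14e-07). Against WT, CP CML LSKs had 2 higher and 4 lower, led by the docking protein Gab2 (0.77 ± 0.08, adjusted p = 1.84e-07), and BC CML against miR-142 KO LSKs had 2 higher and 1 lower. The adaptor Frs2 was higher in BC CML than CP CML LSKs (0.30 ± 0.06), the exchange factor Rasgrp2 higher in miR-142 KO than WT LSKs (0.32 ± 0.07) and the adaptor Crkl lower in CP CML than WT LSKs (-0.23 ± 0.04). Rasgrp4 rose with BCR-ABL with and without miR-142 (1.35 ± 0.30 and 1.55 ± 0.29), Gab2 also rose without miR-142 (0.41 ± 0.08), and Gab1 fell there (-0.69 ± 0.14).

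Of 6 RAS genes, 2 were higher and 1 lower in BC CML against CP CML LSKs, 1 and 2 in miR-142 KO against WT, 1 and 1 in CP CML against WT and 1 and 0 in BC CML against miR-142 KO LSKs. Nras fell with miR-142 loss by 0.23 and 0.18 on the log2 scale with and without BCR-ABL, and Hras was higher in all 4 comparisons (0.29 to 0.52). Mras was lower in miR-142 KO and in CP CML than WT LSKs (-0.46 ± 0.16 and -0.47 ± 0.16), and Rras was higher in BC CML than CP CML LSKs (0.38 ± 0.13). Among 10 RAS GTPase-activating genes, which turn RAS off, 2 were higher and 2 lower in BC CML against CP CML LSKs, 1 and 3 in miR-142 KO against WT, 1 and 7 in CP CML against WT and 0 and 4 in BC CML against miR-142 KO LSKs. Rasa3 fell without miR-142 on both backgrounds (-0.38 ± 0.07 with and -0.39 ± 0.07 without BCR-ABL, adjusted p = 0.000196 and 0.000127). Rasa2 was lower and Rasa1 higher in BC CML than CP CML LSKs (-0.44 ± 0.09 and 0.26 ± 0.06), and Rasal2 was higher in miR-142 KO than WT LSKs (0.27 ± 0.10). Dab2ip fell with BCR-ABL with and without miR-142 (-0.49 ± 0.08 and -0.45 ± 0.08). CP CML LSKs also had lower Rasal1 and higher Rasa2 than WT LSKs (-0.82 ± 0.17 and 0.39 ± 0.09), and BC CML LSKs had lower Rasal3 and Rasa3 than miR-142 KO LSKs (-0.33 ± 0.08 and -0.24 ± 0.07).

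The 14 RAF, MEK and ERK kinases and their scaffolds had small changes for the most part. Between BC CML and CP CML LSKs 2 were higher and 4 lower, in miR-142 KO against WT 5 and 2, in CP CML against WT 4 and 0, and in BC CML against miR-142 KO LSKs 3 and 0. Lamtor3, a scaffold of MEK and ERK at the endosome, rose without miR-142 (0.48 ± 0.06 with and 0.21 ± 0.06 without BCR-ABL) and Araf, a RAF kinase, fell (-0.27 ± 0.04 and -0.21 ± 0.04). Iqgap1, Ksr1 and Ksr2 were higher in CP CML than WT LSKs (0.20 ± 0.05, 0.28 ± 0.05 and 1.14 ± 0.30), and Lamtor3, Iqgap1 and Shoc2 were higher in BC CML than in miR-142 KO LSKs (0.29 ± 0.06, 0.16 ± 0.05 and 0.18 ± 0.06). The scaffold Ksr2 differed most in size between the leukemic groups, with 2.26 to 4.51 CPM in CP CML LSKs against 0.330 to 1.41 CPM in BC CML (-2.06 ± 0.31, SE, edgeR adjusted p = 1.94e-05), while its paralog Ksr1 fell by 0.23 with BCR-ABL and rose by 0.18 without it when miR-142 was absent (difference -0.41 ± 0.07, adjusted p = 0.00347). Of 7 kinases activated by ERK, 2 were higher and 0 lower in BC CML against CP CML LSKs, 3 and 1 in miR-142 KO against WT, 5 and 1 in CP CML against WT and 4 and 1 in BC CML against miR-142 KO LSKs. Rps6ka2, which encodes a ribosomal S6 kinase, rose without miR-142 on both backgrounds (1.04 ± 0.20 with and 1.54 ± 0.20 without BCR-ABL, adjusted p = 0.000220 and 2.66e-06). Its relative Rps6ka3 rose with it (0.51 ± 0.16 and 0.43 ± 0.16), and Mknk2 was lower in miR-142 KO than WT LSKs (-0.14 ± 0.04). Mknk1 and Rps6ka4 rose with BCR-ABL with miR-142 (0.29 ± 0.07 and 0.40 ± 0.10) and without it (0.28 ± 0.07 and 0.29 ± 0.10), as did Rps6ka1 with miR-142 (0.38 ± 0.08) and Rps6ka3 without (0.49 ± 0.16).

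Other phosphatases and feedback inhibitors had calls in both directions. Of 9 tested, 2 were higher and 2 lower in BC CML against CP CML LSKs (median -0.11), 3 and 1 in miR-142 KO against WT (median -0.04), 2 and 0 in CP CML against WT and 0 and 0 in BC CML against miR-142 KO LSKs. Dusp3, a small phosphatase that acts on ERK and JNK, had 11.1 to 18.2 CPM in WT LSKs against 29.0 to 37.0 in miR-142 KO, and 18.0 to 22.5 in CP CML against 33.8 to 39.1 in BC CML LSKs. It rose without miR-142 on both backgrounds (0.86 ± 0.09 with and 1.13 ± 0.09 without BCR-ABL, edgeR adjusted p = 1.22e-07 and 2.00e-09). Dusp16, which acts mainly on JNK and p38, fell (-0.36 ± 0.09 in both, adjusted p = 0.00211 and 0.00235). Errfi1, an inhibitor of EGF receptor kinases, was higher in BC CML than CP CML LSKs (0.80 ± 0.17). Dusp9 was higher in miR-142 KO and in CP CML than WT LSKs (0.78 ± 0.20 and 1.18 ± 0.20), and Dusp3 was also higher in CP CML than WT LSKs (0.38 ± 0.09).

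Among 26 transcription factors and other genes at the end of the pathway, 1 was higher and 6 were lower in BC CML against CP CML LSKs (median -0.40), 1 and 5 in miR-142 KO against WT (median 0.09), 7 and 6 in CP CML against WT (median 0.21) and 5 and 3 in BC CML against miR-142 KO LSKs (median -0.12). Etv1, the third PEA3 factor beside Etv4 and Etv5, had 7 to 25 reads per library in CP CML LSKs against 0 to 4 in BC CML (-3.18 ± 0.59, SE, edgeR adjusted p = 0.000175). It had 16 to 34 reads in WT and 0 to 5 in miR-142 KO LSKs (-3.63 ± 0.56, adjusted p = 2.04e-05), and so fell without miR-142 whether or not BCR-ABL was present. Cic, which encodes Capicua, was lower in BC CML than CP CML LSKs by a small amount (-0.22 ± 0.06, adjusted p = 0.00590). Phlda1 was higher there (1.13 ± 0.30, adjusted p = 0.00468). Srf, the factor that binds CArG boxes, rose with BCR-ABL with and without miR-142 (0.46 ± 0.06 and 0.29 ± 0.06), as did the AP-1 gene Fosl2 (0.98 ± 0.15 and 0.67 ± 0.15). The effect of miR-142 loss depended on BCR-ABL for Emp1, a membrane protein gene, which fell by 2.51 on the log2 scale without BCR-ABL and was at -0.42 ± 0.29 with it (difference 2.10 ± 0.41, adjusted p = 0.00545). Emp1 was also lower in CP CML than WT LSKs (-1.09 ± 0.29). The effect also depended on BCR-ABL for Ccnd1, the gene of cyclin D1, which rose by 0.87 without BCR-ABL and was at 0.01 ± 0.15 with it (difference -0.85 ± 0.22, adjusted p = 0.0266). Ccnd1 was lower in BC CML than in miR-142 KO LSKs (-0.66 ± 0.15).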

How the data were processed

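RNA-seq of LSKs from 24 mice was analysed, 6 per group, with groups taken from the labels. The authors deposited read counts per gene without normalization, together with gene positions and lengths in kilobases. The submitters' processing notes and the methods name Trimmomatic, FASTP, STAR 2.6.0, HTSeq 0.11.1 and the mm10 genome. The annotation and the strand setting of the counting are not given in the sources used here, so reads of overlapping antisense genes could not be told apart. Total counts were 16267965 to 24687077 per library, and limits from counts cover counting error only.

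Counts were fitted with edgeR 4.0.16 (R 4.3.3), using TMM scaling, filterByExpr, all 24 libraries in 1 fit and quasi-likelihood tests, adjusted by Benjamini-Hochberg over 13520 genes with a threshold of 0.05. CPM used the TMM-scaled library totals and RPKM the deposited lengths. Log2 CPM for patterns used a prior count of 2. The fit was tested on simulated data. Alternatives were the likelihood ratio test, DESeq2 1.42.0, RLE and upper quartile scaling, no filter, at least 1 CPM in 6 libraries, sex as a covariate, only the libraries compared, each mouse left out in turn and, added after seeing the data, immediate early gene level as a covariate.

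The members, pathway lists and marker lists were chosen with earlier results of these data known. All members were named, up to 3 called genes of smallest adjusted p per pathway list and comparison, the 3 genes most alike in pattern to each member called in a comparison of groups, and immediate early genes, chosen after their values were seen. 1 gene that the rule on pathway lists would name is not reported here and enters the text only in the counts of its list. Mice were numbered in label order, which pairs nothing. Promoter and microRNA sequences came from RefSeq (GRCm38.p6) and 3′ UTRs from GENCODE annotation of GRCm38; 7 of 10 members had a promoter window.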

Additional observations from a re-analysis of the deposited data

Results flagged for a closer look

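Of 40 sets of 6 mice (10 genes in 4 groups), 2 had a mouse far from the others by Dixon's gap ratio (above 0.625), and chance flags about 1 in 20 such sets. Dusp6 in BC CML mouse 5 was at 63.6 CPM, against 43.5 to 48.9 in the other BC CML mice. Etv4 in miR-142 KO mouse 3 was at 0.885 CPM, against 0 to 0.177 in the other miR-142 KO mice. Without BC CML mouse 5 the genes called in BC CML against CP CML LSKs stayed 7. The flagged miR-142 KO mouse is in neither group of that comparison. Without it the log2 fold change of Etv4 in miR-142 KO against WT LSKs was -0.62 rather than 0.42, and Etv4 passed in neither fit.

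No member had an effect of miR-142 loss that differed with BCR-ABL past the threshold of edgeR's quasi-likelihood test. Of the 88 other pathway genes tested, 4 did, a number close to the share of all genes, 1.91% upward and 2.08% downward. The difference of log2 fold changes (with BCR-ABL minus without) was 0.36 for Crk, -0.41 for Ksr1, 2.10 for Emp1 and -0.85 for Ccnd1.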

How the results depend on the processing

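In BC CML against CP CML LSKs 6 to 8 members were called under the alternatives, 6 where a stricter filter removed Etv4 and 8 in a fit of only the libraries compared. Leaving out 1 mouse, in some fits from a group not compared here, gave 7 in all 24 fits. The number of members called ranged from 4 to 5 over those fits in miR-142 KO against WT LSKs, from 2 to 3 in CP CML against WT LSKs, from 1 to 4 in BC CML against miR-142 KO LSKs (4 with all mice, 1 without miR-142 KO mouse 2 or without BC CML mouse 2, and 2 without WT mouse 6, BC CML mouse 1 or BC CML mouse 5), and from 0 to 2 for the difference of effects (0 with all mice, 2 without miR-142 KO mouse 5, and 1 without WT mouse 4, miR-142 KO mouse 1 or miR-142 KO mouse 3). DESeq2 gave 2 for the difference of effects. In BC CML against miR-142 KO LSKs no filter on low counts gave 2 and a fit of only the libraries compared gave 1. At least 1 CPM in 6 libraries removed Etv4, which left 1 in CP CML against WT LSKs. With immediate early gene level as a covariate, chosen after seeing the data, 7 were called in miR-142 KO against WT, 5 in CP CML against WT and 7 in BC CML against miR-142 KO LSKs. Of all 13520 genes that fit called 4904, 4972 and 5585 in the same order.

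The log2 fold change of Etv4 in BC CML against miR-142 KO LSKs, which was close to 0, changed sign to -0.0033 (likelihood ratio test), -0.0066 (DESeq2), -0.0037 (RLE scaling), -0.026 (upper quartile scaling) and -0.0054 (no filter). With the immediate early covariate Dusp5 was at 0.28 in BC CML against CP CML LSKs and Spred2 at 0.0088 in miR-142 KO against WT LSKs, and the difference of effects was 0.70 for Dusp5, 0.097 for Dusp6, 0.53 for Spry1 and 0.36 for Spry2. None of these passed, and the cause was not tested. Leaving out 1 mouse also turned the sign of values that had not passed. In miR-142 KO against WT LSKs the range over those fits was -0.35 to 0.077 for Dusp5, -0.090 to 0.066 for Spred2 and -0.62 to 0.71 for Etv4. In BC CML against miR-142 KO LSKs it was -0.33 to 0.28 for Spry4, -0.18 to 0.14 for Etv5 and -0.29 to 1.04 for Etv4. For the difference of effects it was -0.45 to 0.030 for Dusp5, -0.34 to 0.012 for Spry1 and -0.25 to 0.025 for Spry2. None of those values passed in any such fit. Upper quartile scaling lowered the share of higher calls among all genes from 53.7% to 42.4% in BC CML against CP CML LSKs and from 54.7% to 42.0% in miR-142 KO against WT LSKs, with no member call reversed. Few reads limit Spry4 and Etv4.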
